A study of Mus musculus with 4 samples.

Results

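Polycomb repressive complex 2 (PRC2) is described here through the transcripts of 10 of its core and accessory subunits, Ezh2, Ezh1, Eed, Suz12, Rbbp4, Rbbp7, Jarid2, Mtf2, Phf1 and Aebp2. Each was found as the single row of the deposited read table with that gene name, so that 10 of 29595 rows were taken. RNA was measured by sequencing in right ventricles from 4 adult mouse hearts of a mixed C57BL/6 background, 2 labelled as Ezh2-deficient mutants (mutant 1 and mutant 3) and 2 labelled as wild type (wild type 1 and wild type 2). No other allele, agent or treatment is named for either group. The labels give neither the part of Ezh2 that was deleted nor the cells that lost it, nor any litter, day or batch. The comparison of the groups asks whether transcripts of the complex differ in the ventricle when its catalytic subunit Ezh2 is deficient.

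PRC2 silences genes by adding methyl groups to a lysine of histone H3. EZH2 or its paralogue EZH1 carries the catalytic domain, EED binds the methyl mark and stimulates the enzyme, SUZ12 is the scaffold, and RBBP4 or RBBP7 binds histones. Accessory proteins give the complex alternative forms. One form carries a Polycomb-like protein, such as MTF2 or PHF1, which binds DNA rich in CpG, and another carries JARID2 and AEBP2, which help to recruit the complex and tune its activity. EZH2 is known as the enzyme of dividing and developing cells, whereas EZH1 persists in resting adult tissue.

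The libraries held 18177642 to 23853394 reads, and mitochondrially encoded rows took 34.7% to 47.3% of them. Reads of the Y-linked gene Ddx3y numbered 754 and 659 from the mutants against 2 and 2 from the wild types, so sex followed genotype and the 2 cannot be told apart in any value below. All 5 cardiomyocyte markers examined were abundant, with a summed level of 39451 and 45906 CPM (reads per library scaled to a common depth by the TMM method) in the mutants and 37466 and 33821 CPM in the wild types. These 5 did not move together. Myl2 averaged 17703 CPM in the mutants against 9653 in the wild types, and Ryr2 730 against 1103. Neither passed by edgeR, though DESeq2 called Myl2. Markers of other cells were present as well. Smooth muscle and pericyte markers summed to 298 and 332 CPM in the mutants against 287 and 321 in the wild types. Erythroid markers summed to 741 and 939 against 571 and 466 CPM, and lymphocyte markers to 4.48 and 8.87 against 4.32 and 4.23 CPM. The 4 endothelial markers summed to 366 and 479 CPM in the mutants and 488 and 428 CPM in the wild types, the 4 fibroblast markers to 193 and 227 against 295 and 219 CPM, and the 4 macrophage markers to 93.1 and 76.5 against 94.3 and 63.5 CPM. The 3 fast skeletal muscle markers stood at 112 CPM in mutant 1 and at 1.88 CPM in mutant 3, with 1.91 and 0.553 CPM in the wild types and none of the 3 at 0 in any library. The 3 atrial markers summed to 3399 and 3041 CPM in the mutants and 410 and 176 CPM in the wild types. Nppa, the natriuretic peptide gene that ventricles also express under load, made up most of that sum and passed the test (edgeR adjusted p = 0.0316), while Myl7, an atrial myosin light chain gene, gave 1658 and 1218 reads from the mutants and 665 and 54 from the wild types. The part of these markers in the values below was not tested. In whole tissue, fewer cells of a type and less RNA per cell cannot be told apart.

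No PRC2 subunit passed the test between mutants and wild types. All 10 had enough reads to be tested, and 0 of the 10 were called at an adjusted p of 0.05 by edgeR's quasi-likelihood test over all rows, where 0.130% of 16128 tested rows were called. By the unadjusted p (under 0.05), 0 of the 10 were higher and 1, Jarid2, was lower, against 6.49% and 4.38% of all tested rows. DESeq2 called 0 of the 10 as well, where it called 1.21% of rows, and limma-voom called 0, where it called 0.0868%. edgeR called 0 of the 10 without mutant 1 and 0 without mutant 3, where it called 0.415% and 0.670% of rows. The values of 8 members overlapped between the groups. Jarid2 was lower in both mutants than in both wild types and Phf1 was higher, orders found in 22.4% and 22.3% of all tested rows. The median log2 fold change of the 10 was 0.09, against 0.0046 over all tested rows.

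**Figure D1:**
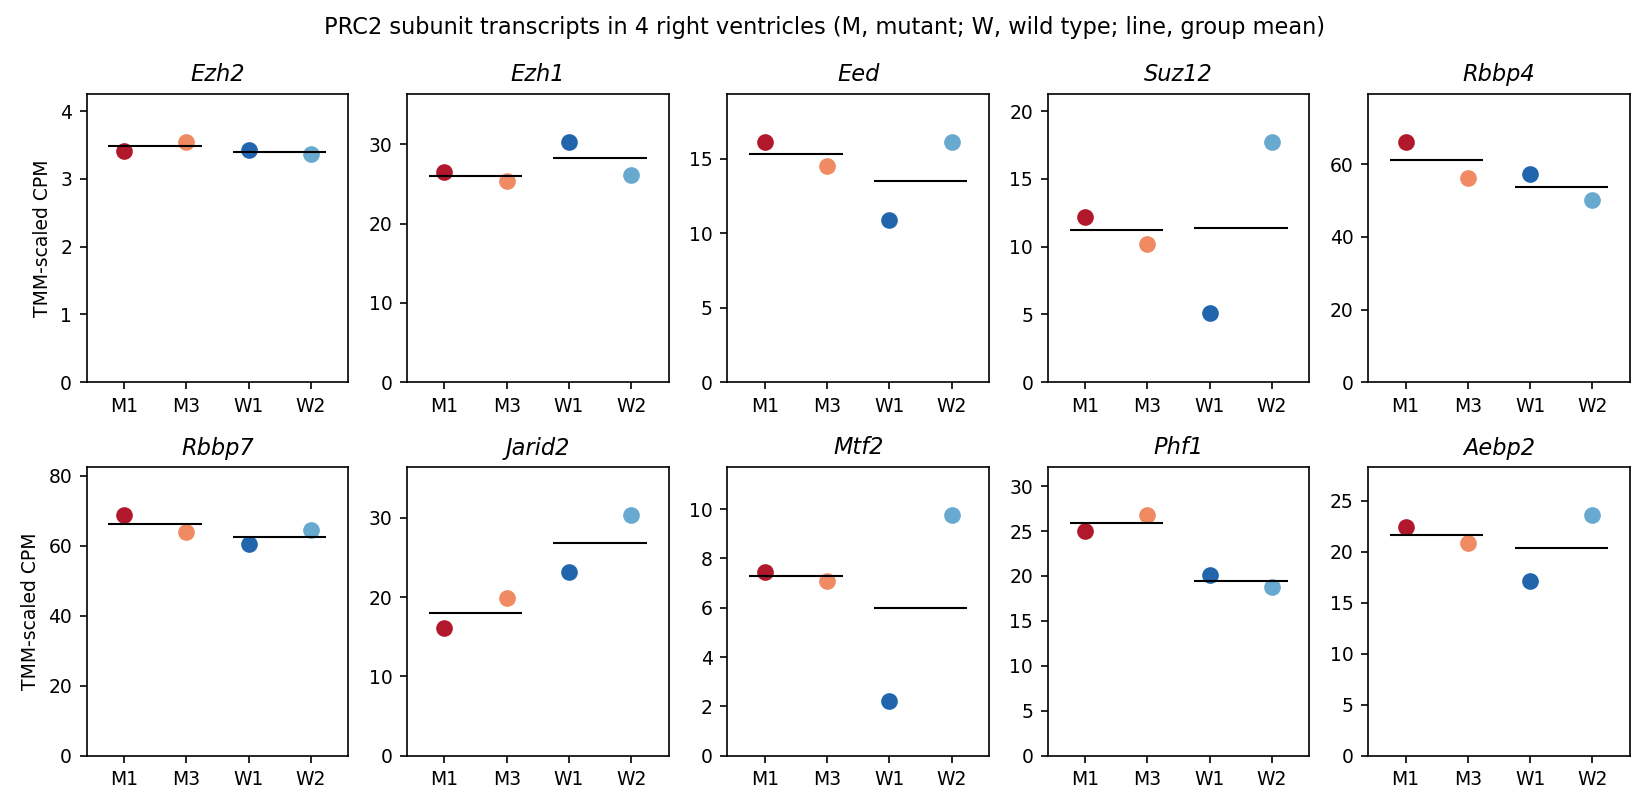
TMM-scaled CPM (vertical axis, starting at 0, a scale of its own in each panel) of the 10 PRC2 subunit transcripts in mutant 1 and mutant 3 (red) and in wild type 1 and wild type 2 (blue), with a line at each group mean. Suz12 and Mtf2 were lowest in wild type 1 and highest in wild type 2, and Jarid2 and Phf1 alone did not overlap between the groups.

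Ezh2, the gene named as deficient, was read at 3.41 and 3.55 CPM in the mutants and 3.43 and 3.37 CPM in the wild types. The 4 libraries were almost level, and the groups overlapped. The row spans chromosome 6, 47480280 to 47545337 (mm9, minus strand), and counts reads of the whole gene with no breakdown by exon, so it does not check the labels. The log2 fold change of mutant over wild type was 0.03 ± 0.30 (SE), with a 95% interval of 0.635 to 1.65 in fold (edgeR adjusted p = 0.978). Only 67 to 77 reads per library stood behind these values. That interval is a range for the fold change of the whole row and not a limit of detection. A change beyond it could also have missed the adjusted threshold with these 4 libraries.

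Its paralogue Ezh1 (chromosome 11, 101052430 to 101089262) was at 26.6 and 25.3 CPM in the mutants and 30.3 and 26.2 CPM in the wild types. Wild type 1 was the highest library and wild type 2 lay within the range of the mutants. The log2 fold change was -0.12 ± 0.21 (SE; 95% interval 0.652 to 1.29 in fold; edgeR adjusted p = 0.865). Of the reads of the 2 catalytic subunits, Ezh1 took 88.6% (95% Clopper-Pearson interval 85.9 to 91.0) and 87.7% (84.7 to 90.3) in the mutants and 89.8% (87.5 to 91.9) and 88.6% (85.7 to 91.0) in the wild types. The 4 intervals overlapped, and they cover counting error only. Per kilobase of the longest coding transcript, Ezh1 stood at 6.01 to 7.21 and Ezh2 at 1.21 to 1.27 CPM, so Ezh1 was also the higher of the 2 per length in each library. These libraries were treated with a duplex-specific nuclease that removes abundant sequence, so a difference in level between genes may be understated.

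Eed, whose protein reads the methyl mark (chromosome 7, 97103186 to 97129480), was at 16.1 and 14.5 CPM in the mutants and 10.9 and 16.1 CPM in the wild types. Wild type 1 was the lowest of the 4, and the other 3 lay close together. The log2 fold change was 0.18 ± 0.26 (SE; edgeR adjusted p = 0.839). Of Suz12, the scaffold (chromosome 11, 79806608 to 79847625), the mutants had 262 and 201 reads and the wild types 114 and 353, or 12.2, 10.2, 5.08 and 17.8 CPM in the same order. Both mutants lay between the wild types, which were 3.50 times apart (wild type 2 over wild type 1, 95% counting interval 2.82 to 4.36). The mutants averaged 11.2 ± 1.44 CPM (SD, n = 2) and the wild types 11.4 ± 8.97, and the log2 fold change was -0.02 ± 0.50 (SE; edgeR adjusted p = 0.993).

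The histone-binding subunits had the most reads. Rbbp4 (chromosome 4, 128984344 to 129012614) was at 66.3 and 56.2 CPM in the mutants and 57.3 and 50.3 CPM in the wild types, with a log2 fold change of 0.19 ± 0.21 (SE; edgeR adjusted p = 0.788). The X-linked Rbbp7 (chromosome X, 159198391 to 159217022) was at 68.8 and 63.8 CPM in the mutants and 60.5 and 64.6 CPM in the wild types, with a log2 fold change of 0.08 ± 0.20 (SE; 95% interval 0.767 to 1.47 in fold; edgeR adjusted p = 0.909). Both genes overlapped between the groups, the X-linked one included, although the hearts differed in sex. Per kilobase, Rbbp7 at 26.9 to 30.7 CPM and Rbbp4 at 11.4 to 15.0 CPM were the highest of the 10 in every library. Both proteins also serve other histone complexes. The longest coding transcripts of the 2 genes share no identical window of 36 bases. Their longest identical stretch is 20 bases, aaccatgaaggagaagtgaa (GENCODE M21). The row Sync on the opposite strand overlaps Rbbp4 by 1460 bases, and 4932441K18Rik overlaps Rbbp7 by 172. No source used here says whether counting took account of strand, so reads in those stretches may be shared.

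Of the partners of the form with JARID2 and AEBP2, Jarid2 was lower in the mutants without passing the test. Jarid2, a DNA-binding relative of the histone demethylases that lacks their activity (chromosome 13, 44826207 to 45016346), gave 344 and 393 reads from the mutants and 521 and 603 from the wild types, or 16.1, 19.9, 23.2 and 30.3 CPM in the same order. Both mutants were below both wild types. The nearest libraries, mutant 3 and wild type 1, were closer to each other than the wild types were to each other. The log2 fold change was -0.57 ± 0.24 (SE; 95% interval 0.454 to 0.995 in fold; unadjusted p = 0.0480, edgeR adjusted p = 0.451). It was -0.75 (adjusted p = 0.0206) without wild type 1 and -0.37 (adjusted p = 0.173) without wild type 2. Aebp2, a zinc finger protein (chromosome 6, 140571184 to 140625939), was at 22.4 and 20.8 CPM in the mutants and 17.1 and 23.6 CPM in the wild types, and so lay between the wild types in both mutants (log2 fold change 0.09 ± 0.24 SE, edgeR adjusted p = 0.923).

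Neither Polycomb-like gene passed, and their patterns over the libraries were unlike. Of Phf1 (chromosome 17, 27070072 to 27074835), the mutants had 535 and 528 reads and the wild types 452 and 373, or 24.97, 26.8, 20.1 and 18.8 CPM. Both mutants were above both wild types, at 25.9 ± 1.28 CPM (SD, n = 2) against 19.4 ± 0.962. The log2 fold change of 0.41 ± 0.21 (SE; 95% interval 0.946 to 1.87 in fold) did not pass (unadjusted p = 0.0896, edgeR adjusted p = 0.533). With the reads scaled by library totals in place of TMM it was 0.12, since that scaling moved the median of all tested rows by -0.28. The row Tctex-3 covers the same span with nearly the same reads (535 and 528 from the mutants, 451 and 373 from the wild types), so it is 1 locus counted under 2 names.

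Of the 10 members, Mtf2 (chromosome 5, 108494761 to 108538021) varied most within a group. The mutants had 160 and 140 reads of it and the wild types 50 and 194, or 7.47, 7.10, 2.23 and 9.76 CPM. The mutants differed by less than counting error (mutant 1 over mutant 3 was 1.05, 95% counting interval 0.833 to 1.33), while wild type 2 was 4.38 times wild type 1 (3.20 to 6.11). The log2 fold change was 0.29 ± 0.57 (SE; 95% interval 0.489 to 3.04 in fold; edgeR adjusted p = 0.886).

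**Figure D2:**
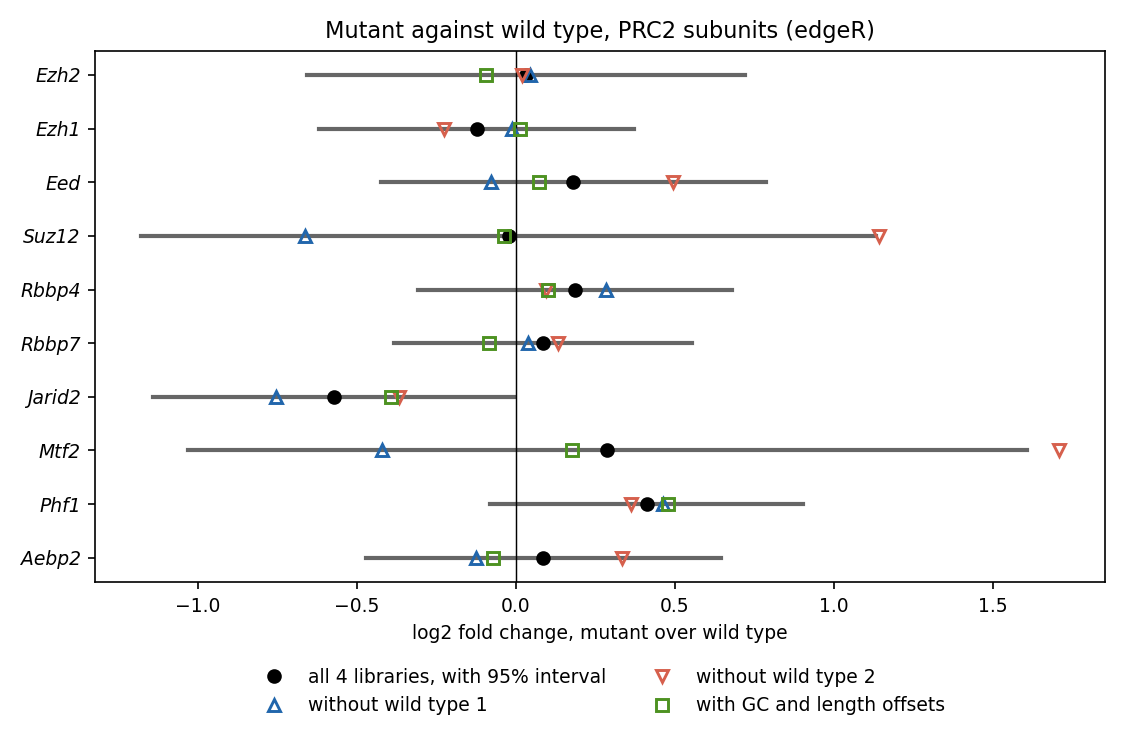
Log2 fold change of mutant over wild type (horizontal axis) for each PRC2 subunit with all 4 libraries and its 95% interval (black point, grey bar), without wild type 1 (blue), without wild type 2 (red) and with offsets for GC content and transcript length (green). The widest intervals were those of Mtf2 and Suz12, where the wild type left out set the sign.

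For Suz12 and Mtf2 the comparison therefore turned on which wild-type heart was used. Without wild type 2, Mtf2 had a log2 fold change of 1.71 (edgeR adjusted p = 0.00143) and Suz12 one of 1.14 (adjusted p = 0.00609), so 2 of the 10 were called where 21.6% of all tested rows were. Without wild type 1 the signs turned, to -0.42 (adjusted p = 0.231) and -0.66 (adjusted p = 0.0516), and Jarid2 alone was called where 10.8% of all tested rows were. Eed at 0.49 and -0.08 and Aebp2 at 0.33 and -0.13 also changed sign, without a call. In each of these fits the lone wild type was assumed to vary like the mutants. Eed, Suz12, Mtf2 and Aebp2, 4 of the 10, had wild type 1 as the lowest and wild type 2 as the highest of all libraries, as did 13.1% of all tested rows. A gap between the wild types as large as that of Mtf2 was found in 2.95% of all tested rows and one as large as that of Suz12 in 4.66%. For Ezh2 that share was 97.3%.

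The gap between the wild types moved with the base composition of the transcripts. Over 13126 tested rows with a matched transcript, the log2 ratio of wild type 1 to wild type 2 had a Pearson's r of 0.49 and a Spearman's rho of 0.54 with GC content, and an r of -0.26 with log2 transcript length. These are descriptions across genes of the same libraries, which are not independent. Between the mutants the r with GC content was -0.0056. Rows under 40% GC had a median ratio of wild type 1 to wild type 2 of 0.470, and rows of 40% to 45% one of 0.707. Rows of 55% or more had one of 1.30. Of the 10 members, Mtf2 has the lowest GC content (38.2%), followed by Aebp2 (40.9%) and Suz12 (41.6%), and Phf1 has the highest (60.0%). With offsets for GC content and length, wild type 2 was 2.06 times wild type 1 for Mtf2 (8.005 and 3.88 CPM) and 2.16 times for Suz12 (15.7 and 7.29 CPM), smaller gaps than before but not closed. The order of the libraries stayed the same for both genes. For Eed the offsets left the gap as it was (1.54 times), and for Aebp2 wild type 1 became the higher (26.2 against 19.7 CPM). The offsets widened other gaps. For Rbbp4, wild type 2 over wild type 1 went from 0.878 to 0.647 (47.1 against 72.9 CPM). That ratio went from 0.983 to 0.817 for Ezh2 and from 0.932 to 1.21 for Phf1. It went from 1.07 to 0.927 for Rbbp7, and narrowed for Ezh1 (0.863 to 0.951) and Jarid2 (1.31 to 1.27). Whether base composition produced these gaps was not tested.

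**Figure D3:**
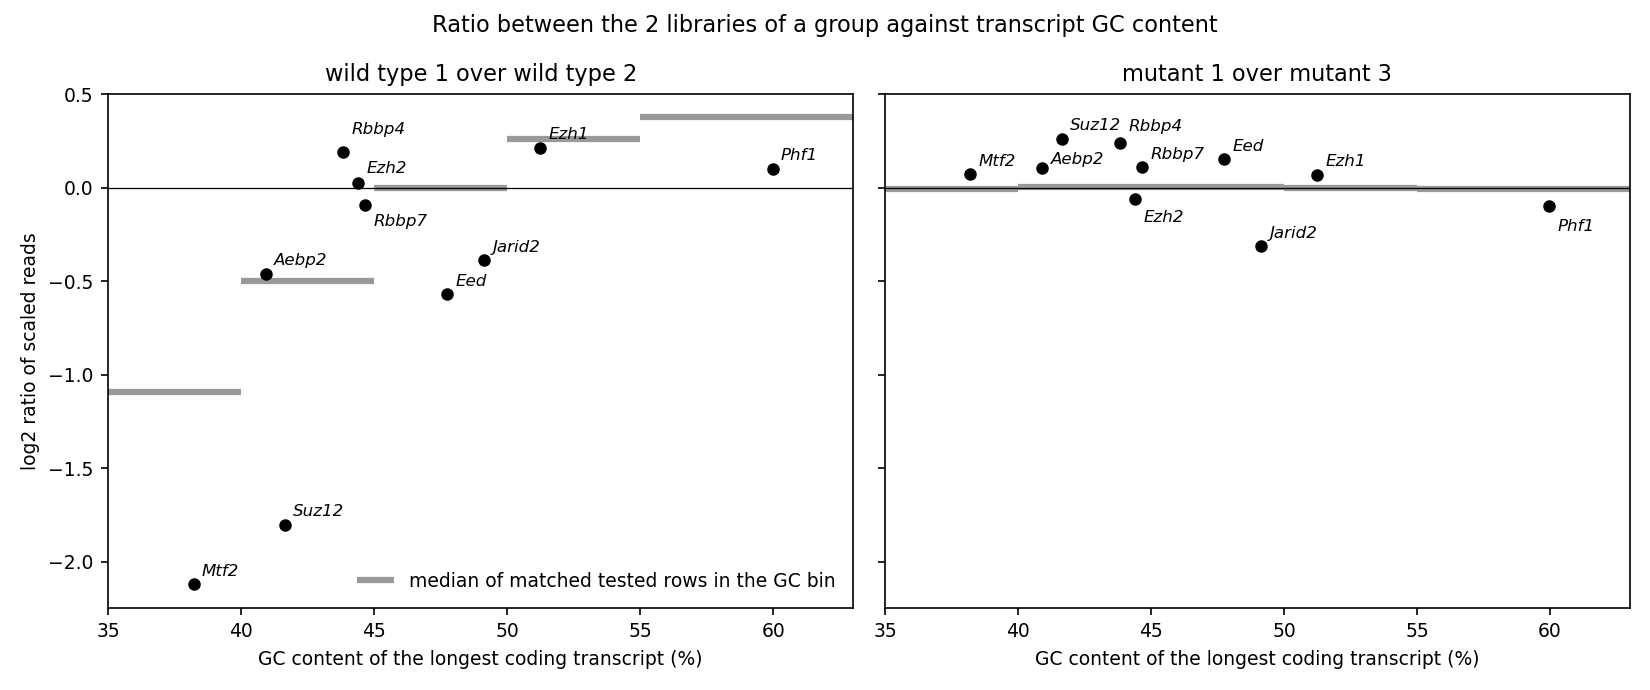
Log2 ratio of scaled reads between the 2 libraries of a group (vertical axis) against the GC content of the longest coding transcript (horizontal axis), for the wild types (left) and the mutants (right), with points for the PRC2 subunits and grey bars for the median of the tested rows with a matched transcript in 5 GC bins. Among the wild types the bars climb with GC content, with Mtf2 and Suz12 below them, while among the mutants they are flat.

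With the same offsets, 0 of the 10 members were called, where 0.609% of tested rows were. Jarid2 had a log2 fold change of -0.39 (edgeR adjusted p = 0.420) and Phf1 one of 0.48 (adjusted p = 0.270). Phf1 reached 0.62 (adjusted p = 0.0256) with the offsets and without wild type 2, where 14.9% of rows were called, and 0.35 (adjusted p = 0.244) with them and without wild type 1, where 6.22% were. In the same 2 fits, chosen after the data were seen, Mtf2 was at 0.82 (adjusted p = 0.0486) and -0.22 (adjusted p = 0.596) and Suz12 at 0.64 (adjusted p = 0.0730) and -0.47 (adjusted p = 0.168). The signs of both genes thus still depended on the wild type used.

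The promoters of Suz12 and Mtf2, the members whose wild types were furthest apart, are shown for comparison. Eed and Aebp2 had the same order of the 4 libraries, but their promoters are not shown. With that of Jarid2, the subunit lowest in the mutants relative to the wild types, 3 promoters are given. Each is the 250 bases before a transcription start given by RefSeq on GRCm38.p6, a later build than that of the reads, read 5′ to 3′ along the gene, and the first start listed where there are several. Capitals mark the CCAAT box (CCAAT or ATTGG) and any of 4 E2F words (TTTCCCGC, TTTGGCGC, TTTCGCGC or TTTGGCGG, either strand).
Suz12 (chr11:79992856-79993105, plus strand): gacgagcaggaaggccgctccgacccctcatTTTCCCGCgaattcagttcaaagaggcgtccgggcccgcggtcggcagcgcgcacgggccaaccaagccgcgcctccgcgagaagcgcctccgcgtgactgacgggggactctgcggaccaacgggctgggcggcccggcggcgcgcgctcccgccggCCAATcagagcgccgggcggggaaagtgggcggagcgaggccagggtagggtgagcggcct
Mtf2 (chr5:108065424-108065673, plus strand): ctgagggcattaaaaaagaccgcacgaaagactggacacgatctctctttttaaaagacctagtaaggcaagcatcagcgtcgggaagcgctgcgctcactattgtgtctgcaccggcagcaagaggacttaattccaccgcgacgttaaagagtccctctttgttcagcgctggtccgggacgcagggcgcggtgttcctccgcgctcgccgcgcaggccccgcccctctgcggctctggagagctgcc
Jarid2 (chr13:44730524-44730773, plus strand): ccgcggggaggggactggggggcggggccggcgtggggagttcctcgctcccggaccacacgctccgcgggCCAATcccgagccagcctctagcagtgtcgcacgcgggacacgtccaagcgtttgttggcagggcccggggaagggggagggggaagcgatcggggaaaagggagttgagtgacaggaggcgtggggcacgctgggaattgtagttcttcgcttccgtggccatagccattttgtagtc
All 3 are rich in CpG, with 37, 23 and 23 CpG in these windows against a median of 6 over 32851 promoter windows. The window of Suz12 holds 1 E2F word, as 1.96% of all windows hold 1 or more, and a CCAAT box, as 33.8% do. That of Jarid2 holds a CCAAT box and that of Mtf2 neither. The 14 windows of the 10 members held 1 to 37 CpG. Of these 14 windows, 7 held a CCAAT box and 1 an E2F word. A match is a description of the letters and not a site.

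Ratios between subunits inside a library do not depend on how the libraries are scaled, and 8 pairs were compared. With 2 hearts against 2 the exact permutation test (two-sided) cannot go below p = 0.333, and after adjustment over the 8 pairs each p was 1. The mutants had 7.79 and 7.13 reads of Ezh1 per read of Ezh2 and the wild types 8.84 and 7.76 (log2 difference -0.15, exact permutation p = 0.667). Per read of Rbbp4, the mutants had 1.04 and 1.14 reads of Rbbp7 and the wild types 1.06 and 1.28 (-0.10, exact permutation p = 0.667). The groups overlapped in both pairs.

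Ratios to Suz12 or Mtf2 spread more widely, and all but that of Mtf2 to Suz12 were highest in wild type 1. Suz12 and Mtf2 had their fewest reads in that library, so these ratios largely restate the same gap. A difference between libraries that varies with GC content need not cancel inside a ratio. Per read of Suz12, the mutants had 1.31 and 1.96 reads of Jarid2 and the wild types 4.57 and 1.71, so the groups overlapped and wild type 1 stood apart (log2 difference -0.80, exact permutation p = 0.667). Per read of Mtf2, the mutants had 3.34 and 3.77 reads of Phf1 and the wild types 9.04 and 1.92, with both mutants between the wild types (-0.23, exact permutation p = 1). The same order held for Eed per read of Suz12, with 1.32 and 1.42 from the mutants against 2.14 and 0.909 from the wild types. It also held for Aebp2 and for Phf1 per read of Suz12. Mtf2 per read of Suz12 was the 1 pair whose groups did not overlap, with 0.611 and 0.697 from the mutants against 0.439 and 0.5496 from the wild types (log2 difference 0.41, exact permutation p = 0.333), but its 95% counting intervals overlapped (0.498 to 0.746 in mutant 1 and 0.459 to 0.657 in wild type 2).

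**Figure D4:**
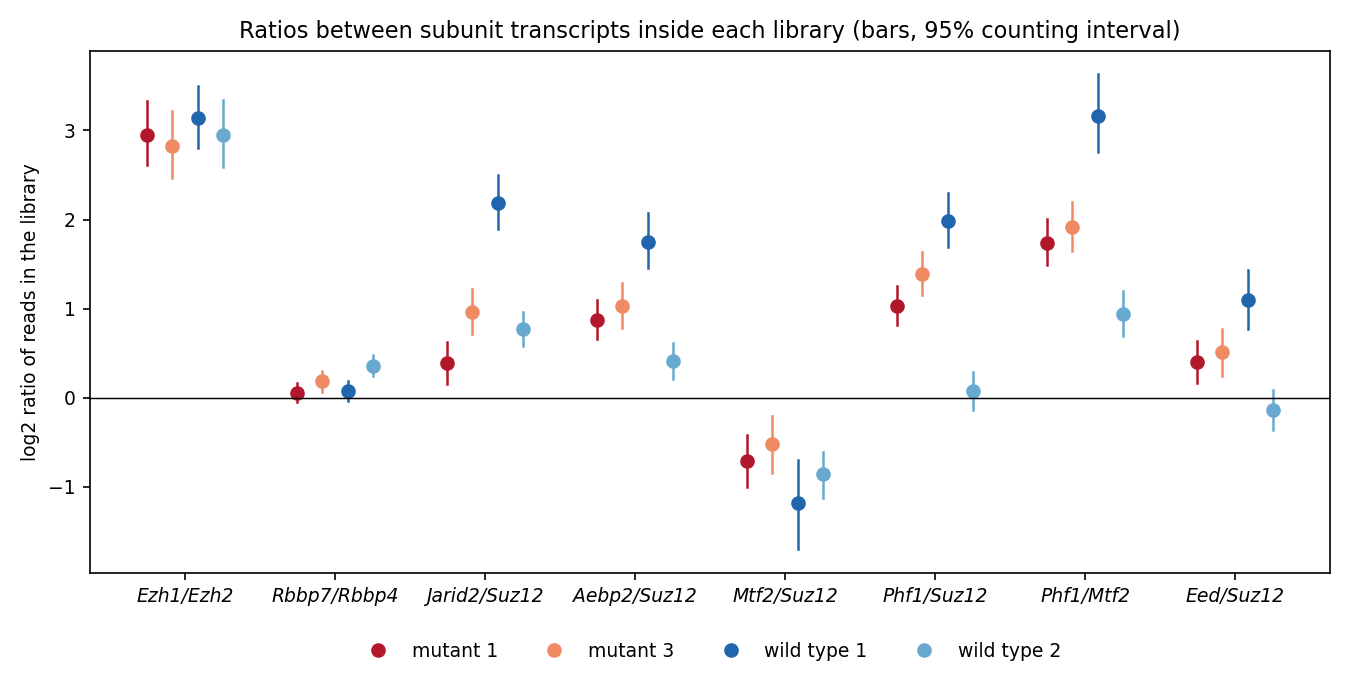
Log2 ratio of the reads of 2 subunits inside each library (vertical axis) for 8 pairs (horizontal axis), with 95% counting intervals. The Ezh1 to Ezh2 and Rbbp7 to Rbbp4 ratios were close in all 4 libraries, whereas the ratios to Suz12 or Mtf2, other than Mtf2 to Suz12, were highest in wild type 1.

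Per kilobase of the longest coding transcript, the order of mean levels in the wild types was Rbbp7, Rbbp4, Phf1, Ezh1, Eed, Jarid2, Aebp2, Suz12, Mtf2 and Ezh2. Rbbp7 was at 27.9 CPM per kilobase and Rbbp4 at 12.2, without overlap between the 2 genes in any library. From Phf1 to Eed the neighbours were less distinct: Phf1 was at 7.70, Ezh1 at 6.71 and Eed at 6.53, and Ezh1 and Eed changed places between libraries. Jarid2 at 4.46, Aebp2 at 3.43 and Suz12 at 2.61 overlapped in the wild types, and so did Suz12, Mtf2 at 1.48 and Ezh2 at 1.22. In the mutants Aebp2 (3.64) stood above Jarid2 (3.00), the reverse of the order of their means in the wild types.

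The authors' deposited table compares single libraries by a test not given in the sources used here, on CPM not TMM-scaled. With total reads in place of TMM, the median over all tested rows shifts by -0.28 on the log2 scale. In the authors' deposited table, Jarid2 was below 1 in all 4 ratios of a mutant to a wild type, at 0.611 and 0.478 for mutant 1 and 0.635 and 0.497 for mutant 3 (against wild type 1 and wild type 2). The authors' deposited table has Ezh1 and Ezh2 below 1 in all 4 as well, at 0.617 to 0.916 and 0.766 to 0.912. For Mtf2 the authors' deposited table gives 2.96 and 2.36 against wild type 1 and 0.691 and 0.550 against wild type 2. The ratio of wild type 1 to wild type 2 in the authors' deposited table is 0.233 for Mtf2 (p = 1.03e-24) and 0.292 for Suz12 (p = 3.65e-35). For Jarid2 that ratio in the authors' deposited table is 0.782 (p = 3.69e-05), so its p-values also separate hearts of the same genotype.

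Further partners and opponents of PRC2 were counted from lists of related genes. Of the other PRC2 accessory genes, Phf19, the remaining Polycomb-like gene, had 8 to 19 reads per library and was too low to test, like Epop. The corepressor gene Lcor, whose locus also encodes a PRC2 partner, was at 3.03 and 2.69 CPM in the mutants and 1.83 and 4.83 CPM in the wild types, again with the mutants between the wild types (edgeR adjusted p = 0.900). Of the 3 demethylases that remove the PRC2 mark, the Y-linked Uty was called, with 130 and 109 reads from the mutants and 4 and 0 from the wild types (edgeR adjusted p = 0.0299), though not by limma-voom. Its X-linked counterpart Kdm6a, under its older name Utx, gave 189 and 175 reads from the mutants and 308 and 480 from the wild types. The third, the autosomal Kdm6b (listed as Jmjd3 and named here after its values were seen), gave 668 and 635 reads from the mutants against 1020 and 849 from the wild types. By unadjusted p (under 0.05) 2 of the 3, Kdm6a and Kdm6b, were lower, without passing, where 4.38% of all tested rows were lower. The median log2 fold change of the 3, Uty included, was -0.48 (-0.18 with the offsets for GC content and length). Uty and Kdm6a are sex-linked, and so is Jarid1d on the Y chromosome, the 1 of 4 Jarid1 genes called, with 155 and 125 reads from the mutants and 0 and 0 from the wild types (edgeR adjusted p = 0.00848).

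PRC1 reads and extends Polycomb silencing by marking histone H2A. Of its 22 genes tested, 0 passed by edgeR, where 0.130% of all tested rows did. By unadjusted p (under 0.05) 1 was higher and 3 were lower, against 6.49% and 4.38% of all tested rows. The median log2 fold change of the 22 was -0.22 (-0.11 with the offsets). Pcgf1 was at 3.95 ± 0.490 against 2.23 ± 0.192 CPM (SD, n = 2; edgeR adjusted p = 0.411), and Kdm2b, listed as Fbxl10, at 5.64 ± 0.0126 against 8.98 ± 1.60 CPM (edgeR adjusted p = 0.429). Of 23 tested genes of the NuRD, Sin3, CAF-1, NURF and Hat1 complexes, which share Rbbp4 or Rbbp7, 0 passed by edgeR. At an unadjusted p under 0.05, 0 were higher and 0 were lower, against the same shares of all tested rows. Their median was -0.20 (-0.09 with the offsets). Sin3a, a scaffold of deacetylase complexes, was at 13.7 ± 0.571 against 18.7 ± 0.361 CPM (edgeR adjusted p = 0.505), and Mta2 of NuRD at 23.4 ± 0.687 against 32.3 ± 5.83 CPM (edgeR adjusted p = 0.514).

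The COMPASS and trithorax genes, which oppose Polycomb, had log2 fold changes below 0 in 14 of 14 tested members, as 7991 of 16128 tested rows did. Their median was -0.24 (-0.08 with the offsets), and 0 passed by edgeR, where 0.130% of all tested rows did. By unadjusted p (under 0.05) 0 were higher and 1 was lower, against 6.49% and 4.38% of all tested rows. The lower one was the methyltransferase gene Kmt2b, listed as Wbp7, at 17.6 ± 1.31 against 25.5 ± 2.26 CPM (SD, n = 2; edgeR adjusted p = 0.442), and Cxxc1 was at 15.5 ± 1.22 against 20.1 ± 1.77 CPM (edgeR adjusted p = 0.578). Of 3 tested subunits of the deubiquitinase that reverses the PRC1 mark, 0 passed by edgeR. At an unadjusted p under 0.05, 0 were higher and 0 were lower, against the same shares of all tested rows. Asxl1 was at 20.4 ± 2.55 against 28.8 ± 0.559 CPM (edgeR adjusted p = 0.467), and Bap1, whose groups overlapped, at 21.7 ± 0.374 against 26.8 ± 9.68 CPM (edgeR adjusted p = 0.730). The medians of PRC1, of the complexes with Rbbp4 or Rbbp7 and of COMPASS were below 0 under all 17 alternatives, but their size varied. They ran from -0.50 to -0.11, from -0.49 to -0.069 and from -0.54 to -0.012. The median of the deubiquitinase list ran from -0.59 to 0.080 and so changed sign. DESeq2 and limma-voom also called 0 genes of these 4 lists, where they called 1.21% and 0.0868% of rows.

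Of 15 loci long known as targets of Polycomb silencing, 8 were tested and 1 passed, the cell cycle inhibitor locus Cdkn2a, with 70 and 48 reads from the mutants and 3 and 1 from the wild types (edgeR adjusted p = 0.0463). Over all tested rows edgeR called 0.130%. DESeq2 also called Cdkn2a, and limma-voom called 0 of the list, where it called 0.0868% of rows. A further 3 were higher at an unadjusted p under 0.05 and 0 were lower, against 6.49% and 4.38% of all tested rows. The list was chosen with results of these data known and is not independent evidence of its direction.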

How the data were processed

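Libraries were built from polyadenylated RNA and digested with a duplex-specific nuclease, per the labels' protocols, and TopHat 1.2.0, Cufflinks and mm9 are named per the submitters' processing notes. The counting rule, strand and annotation were not given in the sources used here. Per row and library the authors deposited a raw read count, the input here. The deposited CPM equals count over library total and was only checked. The authors' ratio (fold) and p-value of each pair of libraries were copied as deposited.

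Counts were tested with edgeR 4.0.16 in R 4.3.3 (filterByExpr, 16128 rows kept, TMM, quasi-likelihood test, Benjamini-Hochberg over all rows, two-sided, call at an adjusted p under 0.05) on all 4 libraries. In a simulation of this comparison on 16128 genes, 99 of 100 genes changed 4-fold were called, as were 20 of 15928 unchanged genes. A further 100 genes were changed 16-fold, and 100 of them were called. Many planted changes make the adjusted threshold easier to pass than in the real fit, which called 21 rows. The simulated share is therefore not a detection rate for the members. The changed genes were drawn only from rows above a minimum mean level, which Ezh2 did not reach. No change smaller than 4-fold was simulated, nor a gap between the wild types that varied with GC content. Recovery of smaller changes was not tested. The p-values measure the spread between these samples. Alternatives were DESeq2 1.42.0, limma-voom (limma 3.58.1), other scalings, filters and row sets, each library left out, and loess offsets for GC content and length of the longest coding GENCODE M21 transcript (81.4% of tested rows matched). Starts are counted from 1 (37 of 37 mitochondrial rows showed counting from 0). Promoters of all 10 members came from RefSeq. Ratios used reads plus 0.5. Members, lists and tests were chosen with earlier results of these data known; all members are named, and from each list its called genes or otherwise the 2 of smallest p.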

Additional observations from a re-analysis of the deposited data

How the results depend on the processing

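Jarid2 stayed below 0 and Phf1 above 0 under all 17 alternatives of each (-0.87 to -0.21 and 0.12 to 0.62). The other 8 members changed sign at least once. Scaling by total reads gave -0.26 for Ezh2, -0.10 for Eed, -0.090 for Rbbp4, -0.20 for Rbbp7 and -0.19 for Aebp2, by its construction, as it moved the median of all rows by -0.28. Offsets for GC content and length gave -0.094 for Ezh2, 0.014 for Ezh1, -0.084 for Rbbp7 and -0.073 for Aebp2, and limma-voom gave 0.26 for Suz12. Leaving out 1 library gave -0.077 to 0.49 for Eed, -0.66 to 1.14 for Suz12, -0.42 to 1.71 for Mtf2 and -0.13 to 0.33 for Aebp2, with Suz12 at 0.12 without mutant 3. Offsets without wild type 1 gave 0.051 for Ezh1, -0.21 for Eed, -0.028 for Rbbp7 and -0.22 for Mtf2, and offsets without wild type 2 gave -0.23 for Ezh2, 0.64 for Suz12, -0.18 for Rbbp4, -0.14 for Rbbp7 and -0.27 for Aebp2. Apart from total scaling, the cause was not tested. Rbbp7 has no value without X-linked rows.

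Of the 10 members, 0 to 2 were called when 1 library was left out, and 2 (Mtf2 and Phf1) with offsets and without wild type 2. The count over all rows, 21, (17 higher, 4 lower) was 156 with total reads (76 and 80), 317 with no filter, 3 without mitochondrial, X, Y and abundant rows, 205 by DESeq2, 80 with offsets (14 on the same rows with none), 67 to 3488 without 1 library, and 816 and 1959 with offsets and without wild type 1 or wild type 2. Related genes called, 3, were 1 with upper quartile scaling, 1 by limma-voom, 6 with total reads, 6 with no filter, 0 without mitochondrial, X, Y and abundant rows, 5 by DESeq2, 6 with offsets, 4 to 23 without 1 library, and 9 and 10 with offsets and without wild type 1 or wild type 2. No paired analysis was possible because the groups share a single replicate number. Ezh2 had 67 to 77 reads per library and an SE of 0.30, and Rbbp7, with 1259 to 1474 reads, one of 0.20; how much depth limits either was not tested.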

Other observations

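Other enzymes of repressive chromatin did not pass the test either, by edgeR, DESeq2 or limma-voom. These called 0.130%, 1.21% and 0.0868% of all rows tested, so 0 calls in short lists say little about these genes. Of 4 tested DNA methylation genes, 0 passed by edgeR, with 0 at an unadjusted p under 0.05. The de novo methyltransferase gene Dnmt3a was at 33.3 and 36.4 CPM in the mutants and 41.9 and 59.4 CPM in the wild types (edgeR adjusted p = 0.472), and the maintenance methyltransferase gene Dnmt1 at 12.4 and 11.9 against 15.9 and 13.99 CPM (edgeR adjusted p = 0.665). Of 6 tested methyltransferases of lysine 9 of histone H3, 0 passed by edgeR, with 0 at an unadjusted p under 0.05. Of these, 5 were below 0, as 7991 of 16128 tested rows were, and the median log2 fold change was -0.25 (-0.08 with the offsets). Suv39h2, the 1 above 0, gave 23 and 15 reads from the mutants and 8 and 10 from the wild types (edgeR adjusted p = 0.558), and Setdb2 30 and 40 against 44 and 58 (edgeR adjusted p = 0.688).

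Proliferation genes, with which Ezh2 is known to be expressed, were read at low levels. The 19 listed genes summed to 49.5 and 50.2 CPM in the mutants and 54.8 and 60.5 CPM in the wild types. Of 17 tested, 0 passed by edgeR, where 0.130% of all tested rows did. By unadjusted p (under 0.05) 0 were higher and 1 was lower, against 6.49% and 4.38% of all tested rows. The lower one was Top2a, a topoisomerase of dividing cells, at 2.85 and 2.74 CPM in the mutants and 4.72 and 6.99 CPM in the wild types (edgeR adjusted p = 0.307), while Ezh2 was level across the same libraries. The replication gene Mcm5 was at 2.66 and 2.79 CPM in the mutants and 5.12 and 3.82 CPM in the wild types (edgeR adjusted p = 0.467). These 2 were named for their smallest p. Of the 17, 12 were below 0 and 5 above 0, as 7991 and 8137 of 16128 tested rows were.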
